A study of Mus musculus with 6 samples.

Results

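The netrin and Slit guidance genes are 10 genes of secreted guidance cues and their receptors: the netrins Ntn1 and Ntn4, the netrin receptors Neo1, Unc5a, Unc5b and Unc5c, the Slits Slit2 and Slit3, and the Slit receptors Robo1 and Robo2. They were selected by gene symbol, and all 10 were found among the 26329 genes of the FPKM table (fragments per kilobase of gene, scaled to library size). Total RNA was sequenced from mouse ovaries cultured with the solvent DMSO (Control, 3 libraries) or with ISRIB dissolved in DMSO (ISRIB, 3 libraries). ISRIB is a compound that stabilises eIF2B, a guanine nucleotide exchange factor of translation, and so relieves the integrated stress response. The study asked about primordial follicle activation and mTOR, going by its title. No dose, culture time, animal age or strain was found in the sources used here. Both groups were whole ovaries in culture, so each value is a mixture of oocytes, follicle cells, stroma, vessels and other cells. Fewer cells of a type and less RNA per cell cannot be told apart in such samples.

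Netrins are laminin-related secreted proteins that attract or repel migrating cells and growing axons. Neogenin (Neo1) and DCC are the receptors linked to attraction, and the UNC5 receptors are linked to repulsion and carry an intracellular death domain. UNC5B is also known on endothelial cells, where it restrains vessel sprouting. Slits are large secreted proteins that mostly repel cells through Robo receptors, and both Slits and Robos are made in the ovary.

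Unc5b differed most between the groups, with a mean of 17.4 ± 0.802 FPKM in Control against 12.9 ± 0.574 FPKM in ISRIB (SD, n = 3 per group). Its relative Unc5c was also lower in every ISRIB library than in any Control library, at 3.14 ± 0.0629 and 2.56 ± 0.235 FPKM, and so was Robo1, at 3.97 ± 0.241 and 3.50 ± 0.258 FPKM. In the other 7 genes the libraries of the groups overlapped. The genes were listed with the difference between these ISRIB and Control libraries already known, so their differences are a description and not a test. No gene of the table passed the test described below.

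The promoter windows of the 3 genes whose groups did not overlap are shown because they are the upstream sequence that a reader would look at first. Each window is the 250 bases before the RefSeq start (GRCm38.p6), written 5′ to 3′ on the gene's strand. The Unc5b window is chr10:60831582-60831831 on the minus strand, the Unc5c window chr3:141465314-141465563 on the plus strand and the Robo1 window chr16:72662899-72663148 on the plus strand. Capitals mark matches on either strand to ACGTG or GCGTG, the core of the hypoxia response element, to TGATGNAA, the core of the element bound by ATF4 with C/EBP factors, and to GGGCGG, the GC box bound by Sp1.
Unc5b: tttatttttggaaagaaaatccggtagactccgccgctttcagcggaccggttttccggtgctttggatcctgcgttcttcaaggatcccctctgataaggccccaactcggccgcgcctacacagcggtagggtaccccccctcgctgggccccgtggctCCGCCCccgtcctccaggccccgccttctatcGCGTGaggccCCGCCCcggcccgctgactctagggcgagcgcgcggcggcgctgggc
Unc5c: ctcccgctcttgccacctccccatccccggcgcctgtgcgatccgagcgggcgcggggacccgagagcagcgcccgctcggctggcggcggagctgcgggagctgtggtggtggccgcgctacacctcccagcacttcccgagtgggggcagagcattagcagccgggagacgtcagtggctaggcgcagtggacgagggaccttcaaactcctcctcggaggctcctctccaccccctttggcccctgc
Robo1: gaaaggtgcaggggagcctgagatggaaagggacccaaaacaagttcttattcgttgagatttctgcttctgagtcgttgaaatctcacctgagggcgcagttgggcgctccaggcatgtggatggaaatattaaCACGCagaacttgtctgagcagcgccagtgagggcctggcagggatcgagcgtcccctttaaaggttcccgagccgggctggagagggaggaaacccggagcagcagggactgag
The Unc5b window held 1 GCGTG, which began 57 bases before the start, and 2 GC boxes read on the opposite strand, beginning 89 and 47 bases before the start. The Unc5c window held no match to any of these motifs. The Robo1 window held 1 GCGTG on the opposite strand, beginning 115 bases before the start. Of 32841 mouse promoter windows of this length, 28.2% held GCGTG, 16.6% ACGTG, 32.7% GGGCGG and 3.45% TGATGNAA. The ATF4 motif was found in none of the windows of the 9 genes that matched. Among the other genes, GC boxes numbered 6 in Slit3, 5 in Unc5a, 4 in Ntn4, 3 in Slit2 and 1 in Neo1. Neo1 also held 2 GCGTG, and the Robo2 window at chr16:75447294-75447543 held 2 overlapping ACGTG on opposite strands. The windows of Unc5b, Unc5c and Robo1 had 66.8%, 71.2% and 56.0% G and C, beside a median of 52.4% over all windows. The Unc5c and Robo1 windows lie within the span of the gene in GENCODE, since these genes also have transcripts with an earlier start.

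Whole read numbers that fit the FPKM values could be worked back for all genes, and added up to 34474821 to 38002135 reads per library. On this scale Unc5b rested on 2674 to 4114 reads per library and Unc5a on 136 to 191. The largest gene by level was Neo1, with 9408 to 10309 reads. Replicates differed from each other by 7.76 to 18.72 in chi-square per gene, beyond sampling noise. The ovary's own cells were present: the granulosa regulator Foxl2 averaged 148 FPKM in both groups, and the egg coat gene Zp3 averaged 390 in Control and 447 in ISRIB.

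The levels of the 10 genes spanned a wide range. FPKM are per length, so levels can be set side by side, but they depend on the gene lengths the authors used, which the values imply were 2441 bases for Ntn4 and up to 22907 for Robo2. Averaged over the 6 libraries, the order was Neo1 at 35.2 FPKM, Unc5b at 15.1, Slit2 at 10.1, Slit3 at 7.55, Ntn4 at 5.84, Robo1 at 3.74, Unc5c at 2.85, Robo2 at 0.928, Ntn1 at 0.836 and Unc5a at 0.428. Neighbours in this order were separated in all 6 libraries except Slit2 from Slit3 and Robo2 from Ntn1, whose ranges over the libraries overlapped. Slit2 was above Slit3 inside each library, with a ratio of 1.10 to 1.63. Neo1 lay above 92.7% of all genes in the table and Unc5a above 44.7%.

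**Figure D1:**
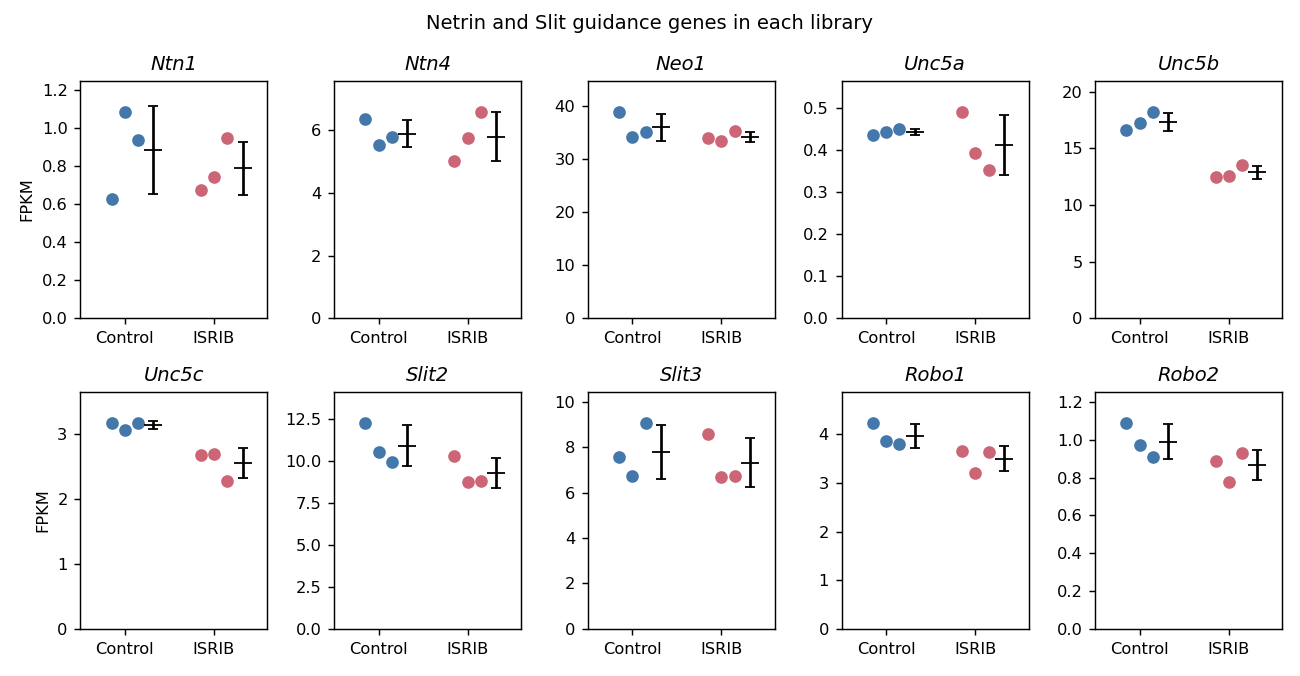
FPKM of the 10 guidance genes in each library (points, Control blue and ISRIB red, y axes from 0), with the mean and SD of each group in black (n = 3). Only Unc5b, Unc5c and Robo1 have all ISRIB points below all Control points.

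Among the ligands, Ntn4 encodes a netrin of basement membranes (chromosome 10, 93640681 to 93747207, plus strand, GRCm38). It had 6.37, 5.54 and 5.78 FPKM in Control replicates 1 to 3 and 5.03, 5.76 and 6.59 in ISRIB replicates 1 to 3. The highest and the lowest library were both ISRIB libraries, and the groups overlapped. The log2 fold change was −0.03 (SE 0.101), and it changed sign to 0.06 without ISRIB replicate 1 and to 0.02 without Control replicate 1. Ntn1, the founding axon guidance netrin (chromosome 11, 68209364 to 68400823, minus strand), had 0.629, 1.08 and 0.938 FPKM in Control and 0.675, 0.743 and 0.946 in ISRIB. Control replicate 1 held the lowest value of all, and the log2 fold change of −0.09 (SE 0.166) became 0.01 without Control replicate 2.

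Slit2 (chromosome 5, 47983138 to 48307733, plus strand) encodes a Slit that repels axons at the midline. It had 12.3, 10.5 and 9.95 FPKM in Control and 10.3, 8.77 and 8.84 in ISRIB. ISRIB replicate 1 lay above Control replicate 3, and the other ISRIB libraries lay below all Control libraries. The means were 10.9 ± 1.23 and 9.32 ± 0.882 FPKM, with a log2 fold change of −0.22 (SE 0.0946). Control replicate 1 weighed on this value, which was −0.13 without it. Slit3 (chromosome 11, 35121224 to 35708507, plus strand), which is known for its part in diaphragm development and in vessels, had 7.56, 6.73 and 9.07 FPKM in Control and 8.56, 6.66 and 6.71 in ISRIB. Its groups overlapped, with a log2 fold change of −0.08 (SE 0.127) that became 0.02 without Control replicate 3.

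Of the netrin receptors, Neo1 (chromosome 9, 58874687 to 59036441, minus strand) had 38.9, 34.1 and 35.1 FPKM in Control and 34.1, 33.5 and 35.3 in ISRIB. Control replicate 1 stood above the other libraries, which overlapped. The log2 fold change was −0.07 (SE 0.0575), and −0.01 without Control replicate 1. Neo1 also binds the repulsive guidance molecules and takes part in BMP signalling.

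Unc5b (chromosome 10, 60762593 to 60831581, minus strand) had 16.6, 17.2 and 18.2 FPKM in Control and 12.5, 12.6 and 13.5 in ISRIB. The groups were separated by a gap of more than the range inside either of them. The mean difference was −25.8%, and the log2 fold change was −0.42 (SE 0.0573, 95% interval −0.55 to −0.28). Leaving out any single library kept it between −0.45 and −0.38. Its limma p was the 14th smallest of the 12922 genes tested, and the 7th smallest among those lower in ISRIB. Unc5b was listed with this contrast known, so the rank is a description only.

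Unc5c (chromosome 3, 141465216 to 141834924, plus strand), whose product steers axons away from netrin, had 3.18, 3.07 and 3.18 FPKM in Control and 2.68, 2.70 and 2.28 in ISRIB. The Control libraries lay close together, and ISRIB replicate 3 was the lowest. The mean difference was −18.7%, with a log2 fold change of −0.26 (SE 0.0879, 95% interval −0.46 to −0.05), and −0.19 without ISRIB replicate 3. Unc5a (chromosome 13, 54949411 to 55006018, plus strand), a mainly neuronal receptor, had 0.437, 0.444 and 0.450 FPKM in Control and 0.492, 0.394 and 0.353 in ISRIB. ISRIB replicate 1 was above and the other ISRIB libraries below all Control libraries, and the log2 fold change was −0.05 (SE 0.0864), which ran from −0.11 without ISRIB replicate 1 to −0.003 without ISRIB replicate 3.

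The Slit receptor gene Robo1 (chromosome 16, 72308306 to 73046095, plus strand) had 4.24, 3.86 and 3.79 FPKM in Control and 3.67, 3.21 and 3.64 in ISRIB. The lowest Control and the highest ISRIB library were close to each other, and the log2 fold change was −0.16 (SE 0.0837, 95% interval −0.35 to 0.03), and −0.10 without ISRIB replicate 2. Robo2 (chromosome 16, 73891839 to 74411825, minus strand), known for its part in kidney and axon development, had 1.09, 0.972 and 0.906 FPKM in Control and 0.890, 0.778 and 0.931 in ISRIB. ISRIB replicate 3 lay above Control replicate 3, and the log2 fold change was −0.12 (SE 0.109), and −0.08 without Control replicate 1. The ratio of Robo1 to Robo2 stayed between 3.89 and 4.19 in all 6 libraries, and the groups overlapped in it.

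**Figure D2:**
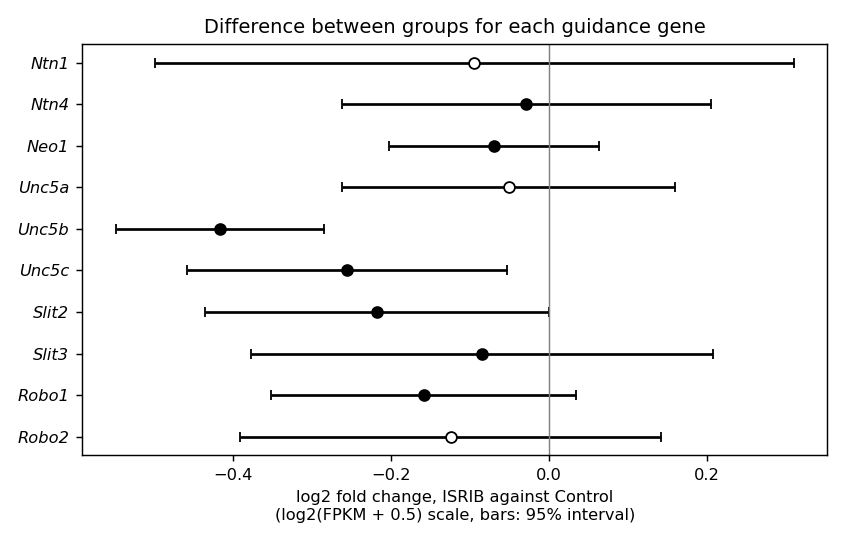
Log2 fold change of ISRIB against Control on the log2(FPKM + 0.5) scale (x axis) for the 10 genes, with 95% intervals from limma. Open points are Ntn1, Unc5a and Robo2, which had a mean FPKM under 1 and were fitted without the filter on low values. The intervals of Unc5b (−0.55 to −0.28) and Unc5c (−0.46 to −0.05) lie below 0.

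Fold changes and p values came from limma on log2(FPKM + 0.5), fitted to the 12922 genes whose mean FPKM was 1 or more. Of the 10 genes, 7 reached that level and Ntn1, Unc5a and Robo2 did not. In that fit 0 of the 7 had a Benjamini-Hochberg adjusted p under 0.05, as was so for 0.00% of all genes tested, and their limma adjusted p values ran from 0.0799 (Unc5b) over 0.220 (Unc5c) and 0.304 (Slit2) to 0.910 (Ntn4). At an unadjusted p under 0.05 in limma 2 of the 7 (Unc5b and Unc5c) were lower, beside 7.73% of all genes lower, and 2125 genes in all. All ISRIB libraries lay below all Control libraries in 3 of the 7, beside 12.0% of all genes and 22.8% without overlap in either direction. The log2 fold change was below 0 in all 7 and in 48.2% of all genes tested. The median log2 fold change of the 7 was −0.16, and that of all genes tested 0.01. Because the genes were listed with this contrast known, nothing is read from these counts.

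When limma's voom was run on recovered reads, 120 genes passed in the whole table, and Unc5b was the only one of the 7, with a log2 fold change of −0.43 and an adjusted p of 0.0189. Its limma adjusted p ran from 0.0189 to 0.274 over the alternatives. Array weights also brought Unc5b past the threshold (adjusted p = 0.0402 in limma). The sign of its difference was negative in all alternatives that were run.

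Gene length moved with the difference between the groups. Across the 12922 genes, Spearman's correlation between length and log2 fold change was −0.361, a description across genes, which are not independent replicates. The 7 genes are long, with a median of 7682 bases beside 3549 for all genes tested, and Ntn4 was the only one of them below that median. Of the 4143 tested genes over 5000 bases, 67.2% had a log2 fold change below 0. Among them 14.99% were lower at an unadjusted p under 0.05 in limma, and in 23.6% every ISRIB library was lower than every Control library. After the trend with length was removed from each library, Unc5b was at −0.39 and Unc5c at −0.20 on the log2 scale. There Slit2 was at −0.15, Robo1 at −0.08 and Neo1 at −0.03, and the median of the 7 genes was −0.08. Neither UNC5 gene passed in limma after this correction, with an adjusted p of 0.148 for Unc5b and 0.364 for Unc5c. In voom with the same correction Unc5b passed with an adjusted p of 0.0408.

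**Figure D3:**
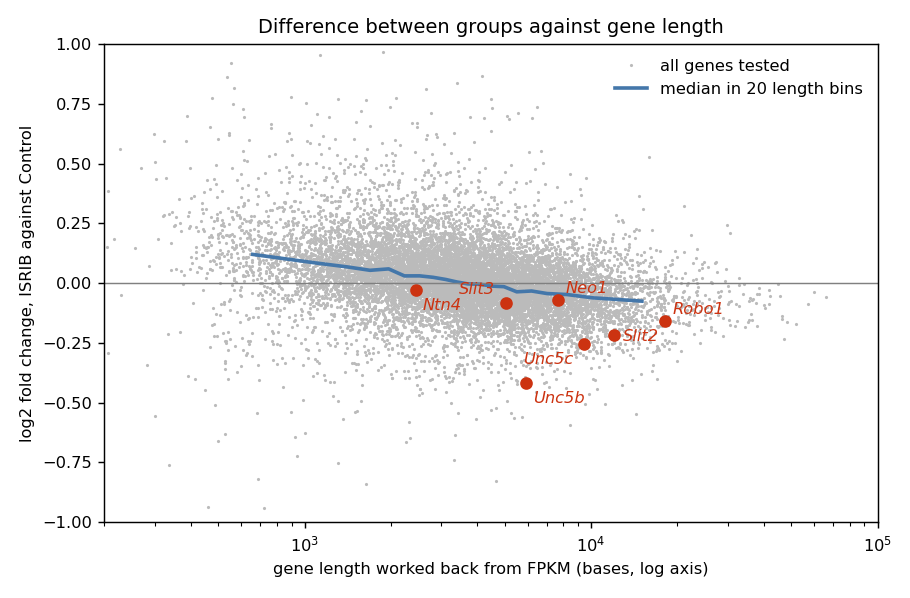
Log2 fold change of ISRIB against Control (y axis) against the gene length worked back from the FPKM values (x axis, log scale) for the genes tested, with 13 genes outside the plotted range. The blue line joins the medians of 20 length bins, and the 7 guidance genes tested are in red. Unc5b (−0.42) and Unc5c (−0.26) lie below the line, and Neo1 (−0.07) lies near it.

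The make-up of the receptor families can be read from the summed FPKM. The 4 UNC5 genes, with Unc5d added, summed to 20.7 to 22.4 FPKM in Control and 16.2 to 16.7 in ISRIB, without overlap. Unc5b made up 80.3% to 81.4% of that sum in Control and 76.8% to 81.3% in ISRIB, and Unc5c 14.2% to 15.4% and 13.7% to 16.7%. The ratio of Unc5b to Unc5c overlapped between the groups, at 5.23 to 5.73 in Control and 4.66 to 5.93 in ISRIB.

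Set against Neo1 in the same library, Unc5b and Unc5c were lower in ISRIB. The ratio of Unc5b to Neo1 was 0.427 to 0.519 in Control and 0.368 to 0.384 in ISRIB, and that of Unc5c to Neo1 was 0.0817 to 0.0906 and 0.0648 to 0.0806. A ratio inside a library does not depend on how the library was scaled, and it shows unequal change, not that Neo1 did not change. Dcc, the other receptor of this kind, was low, at 0.241, 0.348 and 0.317 FPKM in Control and 0.273, 0.489 and 0.409 in ISRIB. Of the other Robo genes, the endothelial Robo4 had 11.1, 9.86 and 11.3 FPKM in Control and 8.15, 11.7 and 11.8 in ISRIB. Robo4 made up 63.4% to 74.2% of the summed Robo level over all libraries, and ISRIB replicate 1 was its lowest library. Slit1 had 1 to 9 reads per library. Unc5d, Dcc, Robo4 and Slit1 were named to complete the families, with their values seen.

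**Figure D4:**
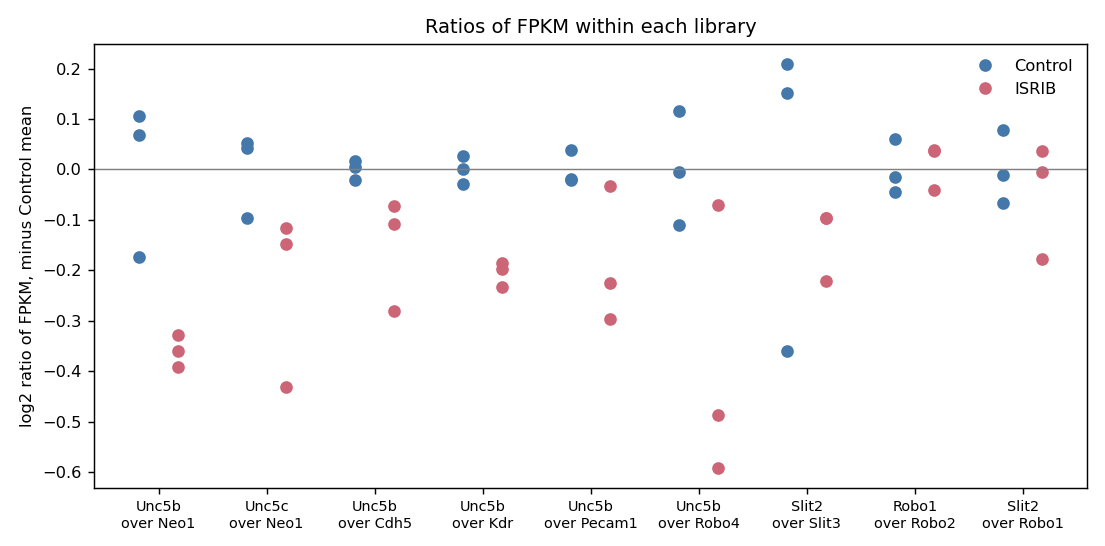
Log2 ratio of the FPKM of 2 genes inside each library, minus the mean of the Control libraries (y axis), for 9 ratios (x axis), with Control in blue and ISRIB in red. The ratios of Unc5b to Neo1, Cdh5, Kdr and Pecam1 and of Unc5c to Neo1 are lower in every ISRIB library, and the Unc5b to Robo4, Slit2 to Slit3, Robo1 to Robo2 and Slit2 to Robo1 ratios overlap.

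Endothelium is a cell type known to carry UNC5B, and 15 of its markers were listed. In limma 0 of the 15 had an adjusted p under 0.05, and 5 were lower and 0 higher at an unadjusted p under 0.05, beside 7.73% and 8.71% of all genes tested. The log2 fold change was below 0 in 13 of them, beside 48.2% of all genes, with a median of −0.14, and in 6 every ISRIB library lay below every Control library, beside 12.0%. Their summed level overlapped between the groups, with 319 to 354 FPKM in Control and 281 to 327 in ISRIB, and the mean of each of the 15 was at least 1 FPKM. The log2 fold changes of Cldn5, Egfl7, Sox18 and Sox17 were −0.07, −0.01, 0.05 and 0.13, and their groups overlapped. The junction cadherin Cdh5 had 42.3 ± 1.70 and 35.0 ± 2.63 FPKM and the VEGF receptor Kdr 25.2 ± 0.687 and 21.6 ± 0.723 (n = 3 each). The ratios of Unc5b to Kdr, Cdh5 and Pecam1 were lower in every ISRIB library, and that to the endothelial Robo4 overlapped. The ratio of Unc5b to Kdr was 0.676 to 0.702 in Control and 0.586 to 0.606 in ISRIB, and that of Unc5b to Cdh5 0.404 to 0.415 and 0.338 to 0.390. Relative to the junction protein gene Pecam1 it was 0.769 to 0.801 and 0.635 to 0.762, and relative to Robo4 1.495 to 1.75 and 1.07 to 1.54. The part of vessel content in the Unc5b difference was not tested.

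Other cell types that could hold these genes were listed in the same way. Of 10 stromal markers 7 were above 0 in log2 fold change, with 851 to 921 FPKM in Control and 858 to 1023 in ISRIB. Pericyte and smooth muscle markers summed to 87.9 to 95.5 and 86.0 to 92.2 FPKM, with members on both sides of 0. The pericyte receptor gene Pdgfrb had a mean of 30.9 ± 0.645 FPKM in Control against 24.5 ± 0.763 in ISRIB (n = 3 per group, limma adjusted p = 0.0799), and the pericyte proteoglycan gene Cspg4 5.38 ± 0.119 against 4.26 ± 0.153 (limma adjusted p = 0.111), both without overlap. The contractile genes Tagln and Acta2 had log2 fold changes of 0.26 and 0.21 (limma adjusted p = 0.201 and 0.299). Tagln was higher without overlap. At an unadjusted p under 0.05 in limma 2 of these markers were lower and 2 higher, beside 7.73% and 8.71% of all genes. Groups without overlap were lower in 12.0% and higher in 10.8% of all genes. Worked-back lengths were 6184 bases for Pdgfrb, 8149 for Cspg4, 1606 for Tagln and 2869 for Acta2. The part of gene length in these differences was not tested. Granulosa markers summed to 457 to 546 and 508 to 626, and oocyte markers to 683 to 764 and 757 to 833. Surface epithelium markers had 6 of 7 genes below 0 and summed to 282 to 323 and 279 to 286 FPKM. Immune markers had 4 of 5 tested genes below 0 and summed to 41.5 to 43.7 and 38.2 to 42.4 FPKM, and oviduct and mesonephric markers to 58.5 to 63.3 and 55.3 to 61.7. The groups overlapped in each of these sums. Of all genes tested, 48.2% had a log2 fold change below 0. Outside the pericyte and smooth muscle list, Pdgfra, Kitl, Lgr5, Csf1r and Epcam were lower at an unadjusted p under 0.05 in limma. Ogn, Inha, Zp3 and Gdf9 were higher at that level, beside the same shares of all genes as above. None of the markers in these lists had a mean of 0. However, Fshr of the granulosa list, Ptprc of the immune list, and Pax2, Ovgp1 and Cdh16 of the oviduct and mesonephric list averaged under 1 FPKM. The highest oviduct and mesonephric markers were Emx2 and Epcam, with Control means of 30.9 and 25.1 FPKM. The part of these cell types in the differences above was not tested.

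The rest of the netrin and Slit pathway was taken from a list of 50 genes, 28 on the netrin and 22 on the Slit side, of which 39 were tested. In limma 0 of the 39 passed with an adjusted p under 0.05. At an unadjusted p under 0.05 in limma 0 of them were higher, beside 8.71% of all genes. There 7 of the 39 (17.9%) were lower, beside 7.73% of all genes and 14.99% of those over 5000 bases. The median log2 fold change was −0.06, with 10 genes above and 29 below 0, beside 48.2% below 0 of all genes and 67.2% of those over 5000 bases. In 11 genes all ISRIB libraries lay below all Control libraries, beside 12.0% of all genes and 23.6% of those over 5000 bases. The 39 genes were also long, with a median of 6899 bases.

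The 6 pathway genes with the smallest p were all lower in ISRIB, with no overlap between the groups. Dag1, which encodes the matrix receptor dystroglycan that binds Slit, had 184, 189 and 176 FPKM in Control and 144, 157 and 147 in ISRIB. Its log2 fold change was −0.29 (SE 0.0477, limma adjusted p = 0.0832). Mcam, an adhesion molecule of vessels that binds netrin, had 37.1, 38.2 and 39.5 FPKM and 27.3, 31.9 and 31.3. The ISRIB libraries of both genes were apart from their Control libraries, and the log2 fold change of Mcam was −0.34 (SE 0.0648, limma adjusted p = 0.0987). These 2 genes passed in voom on the recovered reads (adjusted p = 0.0259 and 0.0428), and neither passed there after the length correction.

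The heparan sulfate proteoglycan gene Gpc1, whose product binds Slit, had 19.9, 17.9 and 19.6 FPKM in Control and 16.3, 16.2 and 16.2 in ISRIB. Dock1, an activator of Rac downstream of netrin receptors, had 20.4, 20.4 and 19.9 FPKM and 18.3, 16.9 and 17.4. Srgap3, a GTPase-activating protein that acts with Robo receptors, had 9.95, 9.65 and 9.74 FPKM and 6.79, 7.93 and 8.96. Its ISRIB libraries were spread more widely than its Control libraries. The netrin gene Ntn3 had 5.09, 5.05 and 5.32 FPKM and 4.45, 4.07 and 4.68, close to the level of Ntn4. The limma adjusted p values of these 4 genes were 0.119 to 0.231.

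The 5 genes whose centred log2 values over the 6 libraries lay nearest to those of Unc5b were Pcdhgb7, Cd93, Eif4ebp2, Nos3 and Csf1r. Their root mean square differences from Unc5b were 0.0501, 0.0587, 0.0598, 0.0612 and 0.0665 on the log2 scale, beside a median of 0.234 for all genes compared. Predicted and clone-named genes were left out of the choice and of the median. The 5 were taken for their small differences, so their distance from the median follows from the choice. Pcdhgb7 is a clustered protocadherin, Cd93 a surface receptor of endothelium and myeloid cells, Eif4ebp2 a repressor of cap-dependent translation, Nos3 the endothelial nitric oxide synthase and Csf1r the receptor of macrophage colony stimulating factor. The mean of Cd93 was 20.9 ± 0.751 FPKM in Control against 16.2 ± 1.31 FPKM in ISRIB, and that of Nos3 17.2 ± 1.06 against 13.5 ± 0.858 FPKM (SD, n = 3 per group). Pcdhgb7 had 1.68 ± 0.0126 against 1.18 ± 0.0765 FPKM and Eif4ebp2 33.5 ± 0.488 against 25.9 ± 0.254 FPKM. For Csf1r the means were 4.56 ± 0.223 and 3.45 ± 0.139 FPKM. The likeness is a description over 6 libraries in 2 groups.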

How the data were processed

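Total RNA of cultured ovaries was sequenced in 3 Control and 3 ISRIB libraries, grouped by their titles. The authors deposited FPKM for 26329 genes, 1 column per library. Build mm10 and the tools HISAT2, fastp, HTSeq, DESeq2 and R 3.2.0 are listed, without roles, in the submitters' processing notes. Neither annotation nor strand setting was found there, so antisense or overlapping neighbours could share reads. No source says that replicates were separate cultures, so p-values measure only the spread between these libraries, which may be technical.

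Whole reads that fit the FPKM were worked back (100.0% of genes, tolerance 0.01 read), which also gave gene lengths. The smallest whole numbers that fit were taken. Where the reads of a gene share a factor in all libraries, its reads and length come out too small. Because FPKM are no counts, limma 3.58.1 (R 4.3.3, intensity trend, two-sided) was fitted to log2(FPKM + 0.5) after the filter on a mean of 1, and p was adjusted by Benjamini-Hochberg with a threshold of 0.05. The pseudocount understates fold changes of low genes. The fit was tested on simulated data. Gene positions come from GENCODE M21 (GRCm38), promoter windows from RefSeq (GRCm38.p6, 9 of 10 genes matched by symbol).

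Genes, lists and tests were chosen with earlier results of these data known. Named are the 10 guidance genes, of the lists the pathway genes (6), semaphorins (2) and ephrins (2) with the smallest p, and the 5 genes nearest to Unc5b without predicted genes. Others were picked with their values seen. Alternatives were other pseudocounts, filters, scalings and limma settings, a replicate block, removal of a loess trend on gene length (span 0.5), voom on recovered reads, and leaving out each library. Some markers are not reported here. Python 3.11.15 and pandas 2.3.3 made the tables.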

Additional observations from a re-analysis of the deposited data

How the results depend on the processing

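Among the 12922 genes tested 0 passed in the limma fit, and 0 passed whichever single library was left out. The count was 8 with a mean FPKM of at least 5, 16 with array weights, 11 with the replicate block, 120 with voom on the recovered reads and 23 with voom after removal of the length trend. The cause was not tested. The median log2 fold change of the guidance genes tested, −0.16, was −0.085 with a mean FPKM of at least 5, where 5 genes remained, −0.22 after TPM rescaling, where all genes had a median of −0.05, −0.078 after removal of the length trend and −0.09 in voom with that removal. Without single libraries it lay between −0.20 and −0.10. Of the other pathway genes 11 were lower at an unadjusted p under 0.05 after TPM rescaling, and 5 to 8 without single libraries. In voom without the length trend 1 was higher, and 0 to 1 without single libraries. Among the 10 genes the sign changed only when single libraries were left out, for Ntn4 (−0.12 to 0.061, with 0.024 without Control replicate 1), Slit3 (−0.20 to 0.024) and Ntn1 (−0.23 to 0.010). The deviations of same-numbered libraries from their group means had r of −0.19, −0.0909 and 0.192 for the 3 numbers. Differently numbered libraries had r from −0.337 to 0.355. With 3 libraries per group these values cannot decide whether the numbers mark a pairing. The replicate block brought none of the guidance genes past the threshold. Reads limit Unc5a (136 to 191 per library) and Ntn1 (126 to 239) most.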

Other observations

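Other guidance families were tested in the same limma fit. Of 29 semaphorins, plexins and neuropilins tested, 0 passed with an adjusted p under 0.05. At an unadjusted p under 0.05 in limma, 0 of the 29 were higher, beside 8.71% of all genes. There 8 of the 29 (27.6%) were lower, beside 7.73% of all genes and 14.99% of the tested genes over 5000 bases. The median log2 fold change of the 29 was −0.08 and their median length 6992 bases. Plxna1, a semaphorin receptor, had 31.3, 31.3 and 31.5 FPKM in Control and 26.8, 24.7 and 25.1 in ISRIB, with a log2 fold change of −0.29 and a limma adjusted p of 0.0832. Plxnd1, the semaphorin receptor of vessels, had 46.1 ± 1.02 and 38.3 ± 1.44 FPKM (n = 3 each), with a log2 fold change of −0.26 and a limma adjusted p of 0.0876. Of 17 ephrin and Eph genes tested, 0 passed with an adjusted p under 0.05. At an unadjusted p under 0.05 in limma, 3 (17.6%) were lower and 0 higher, beside 7.73% lower and 8.71% higher of all genes. The median length of the 17 was 4532 bases. Among the 17 the vein receptor Ephb4 had 39.0 ± 1.30 and 34.4 ± 1.19 FPKM (log2 fold change −0.18, limma adjusted p = 0.136) and Ephb1 2.33 ± 0.271 and 1.84 ± 0.150 (−0.27, adjusted p = 0.259). These families were compared with the same Control libraries as the netrin and Slit genes.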
